A study of Mus musculus with 64 samples.

Results

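The clustered histone genes of the mouse were taken as every protein-coding gene of the expression table whose symbol begins with Hist1h, Hist2h, Hist3h or Hist4h. This rule found 53 genes among the 20637 in the table, and it uses names only, so their levels were free to vary. Of the 53, 6 encode linker histone H1, 11 encode H2A, 15 encode H2B, 10 encode H3 and 11 encode H4. Most lie in the Hist1 cluster on chromosome 13, and the rest lie in the Hist2 cluster on chromosome 3, at Hist3 on chromosome 11 and at Hist4 on chromosome 6. The GENCODE M21 annotation holds 67 protein-coding genes of these names, and the remainder were not analysed here.

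Histones package DNA. H2A, H2B, H3 and H4 form the nucleosome core, and H1 binds the DNA that enters and leaves it. The clustered genes supply the bulk of new histone while DNA is being copied, so their transcripts rise in S phase and are degraded when it ends. Their mRNAs end in a conserved stem-loop bound by the protein SLBP and normally carry no poly(A) tail. A few clustered genes are also known to give polyadenylated transcripts in cells that have stopped dividing. In the heart, cardiomyocytes largely leave the cell cycle in the first weeks after birth, and the young heart can still regenerate.

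The study used CD1 mice in which the left coronary artery was tied (myocardial infarction, MI) or which had a sham operation, on postnatal day 1 (P1) or postnatal day 56 (P56), with hearts taken 3 days later. From each heart type 4 cell populations were prepared. Cardiomyocytes were the dense fraction of a Percoll gradient and were not sorted, fibroblasts were sorted as CD90+/CD45-/CD31-, leukocytes as CD45+ and endothelial cells as CD31+/CD45-. Age, operation and population give 16 groups of 4 libraries, 64 in all, from total RNA depleted of ribosomal RNA, so transcripts without a poly(A) tail were captured. P1 cells came from pools of 6 ventricles digested by stirring, with no sex stated, and P56 cells came from perfused hearts of males at 8 weeks, so age cannot be told apart from the isolation method or from sex. The labels do not say which animals or pools each library came from, and the p-values measure the spread between libraries.

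Depth ran from 9.59 to 27.5 M reads per library (median 20.6 M), recovered from the deposited values, and between 4187 and 70303 of these reads fell on the 53 genes. A count of 3 reads was worth 0.102 to 0.409 CPM. The deposited values are in CPM, but the authors' scaling was not by each library's own reads: the columns sum to between 776590 and 2627530 CPM, and the 4 P56 sham cardiomyocyte columns to at least 1930645 CPM. Levels and changes below are on this deposited scale unless said otherwise. Results were also computed with each library scaled to its own total reads, an alternative chosen after seeing the data, and to its reads on nuclear protein-coding genes. In 7 libraries 18S ribosomal RNA exceeded 5% of reads. On the deposited scale each marker list of the 4 populations was highest in the population of that name at each age and operation. However, the leukocyte libraries also held cardiomyocyte transcripts. The summed level of 12 cardiomyocyte markers was 74717 to 205385 CPM in P56 sham leukocytes, against 180135 to 211465 CPM in P56 sham cardiomyocytes. The columns of these groups total 897315 to 1380749 CPM and 1930645 to 2627530 CPM, in that order. Marker sums were not compared as shares of each library's own reads, where the order can differ. In bulk libraries a change in the share of dividing cells and a change in RNA per cell cannot be told apart.

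The stem-loop that marks these mRNAs was searched for downstream of the stop codon, on the coding strand, as GG, any 2 bases, CTT, any base, T, any base, AG, any base and GCC. It was found in 35 of the 52 members with a GENCODE M21 transcript. In a wider search, anywhere in any transcript, coding or not, the pattern was in 82 of 55450 genes (0.148%). The examples below were chosen to show the form shared by H1, H2A, H2B and H3 genes and the form of H4 genes, in members whose levels are described further on. The sequences are from GENCODE M21 on GRCm38, 5′ to 3′ on the coding strand, and capitals mark the stem-loop.
Hist1h1c, chr13:23739507-23739532, + strand: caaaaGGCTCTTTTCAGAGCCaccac
Hist1h3b, chr13:23752815-23752840, + strand: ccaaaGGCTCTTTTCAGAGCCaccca
Hist1h3g, chr13:23535884-23535909, + strand: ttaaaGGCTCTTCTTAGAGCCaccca
Hist1h4h, chr13:23531453-23531478, + strand: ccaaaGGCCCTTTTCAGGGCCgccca
Hist1h4c, chr13:23698084-23698109, - strand: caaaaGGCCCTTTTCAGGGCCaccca
Hist4h4, chr6:136803993-136804018, - strand: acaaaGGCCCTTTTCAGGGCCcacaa
In the H4 genes shown the stem opens with GGCCC and closes with GGGCC, and in the others it opens with GGCTC and closes with GAGCC. The distance from the stop codon was short in each, for example 24 bases in Hist1h1c, 29 in Hist1h3b and 31 in Hist1h4h. The annotated transcript then ended 51 bases after the stem-loop in Hist1h3b and 46 bases after it in Hist1h4h. In Hist1h1c and Hist4h4 it ran on for 840 and 2445 bases past the stem-loop. Hist1h2bc, an H2B gene whose annotated transcript has 2 exons, and Hist2h2be, with 2192 bases after its stop codon, held no match. Hist1h1b also held none, but its annotated model stops at the stop codon. The models of Hist1h2ai, Hist1h2ak, Hist1h2an, Hist1h2ba, Hist1h2bl, Hist1h2bn, Hist1h3h, Hist1h3i, Hist1h4k and Hist2h2ab stop there too, and that of Hist1h2af 1 base later. None of these models could hold a match, so 35 of 52 is not the share of members whose mRNAs carry a stem-loop.

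Many of the gene copies are alike, to a degree that differs between classes. All 11 H4 members encode 1 protein of 103 residues, and the 10 H3 members encode 2 proteins of 136 residues. The 15 H2B members encode 10 proteins, the 10 H2A members with a transcript encode 6 and the 6 H1 members encode 6. In 20 members more than 50% of the 50-base stretches occur in another gene, and the reads were 50 bases long, so the levels of single copies depend on how such reads were assigned, and the sources used here do not give this. The share was 0% for Hist1h1a, Hist1h1b and Hist2h2be, 8.14% for Hist4h4, 8.54% for Hist1h1c, 30.6% for Hist1h2bc, 45.8% for Hist1h4h and 60.4% for Hist1h3b. At 94.0%, Hist1h2af had the highest share.

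Promoter sequences were available for 47 members from RefSeq (GRCm38.p6, 250 bases before to 50 after the start). They were searched on both strands for TATAAA (the TATA box), CCAAT (the CCAAT box) and ATTTGCAT (the octamer). CCAAT was present in 40 of 47, or 85.1%, against 37.4% of 32851 promoters. It was in every H1, H2A, H2B and H3 promoter searched and in 3 of 10 H4 promoters. TATAAA was in 61.7% of member promoters against 13.6% of all. ATTTGCAT was in 5 of 10 H2A and 6 of 13 H2B promoters, in none of the other classes and in 1.74% of all. The windows of some neighbouring H2A and H2B genes overlap, for example those of Hist1h2ae and Hist1h2bg. As both strands were searched, a single match there can count for both genes, so the member shares hold some matches more than once. The 130 bases before the start are shown for 3 members that fell furthest with age in cardiomyocytes and 2 that were not called there on the deposited scale; capitals mark matches on either strand.
Hist1h1b, chr13:21780626-21780755, - strand: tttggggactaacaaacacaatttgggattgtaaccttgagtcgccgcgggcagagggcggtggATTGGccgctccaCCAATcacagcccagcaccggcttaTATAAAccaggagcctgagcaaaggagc
Hist1h3b, chr13:23752215-23752344, + strand: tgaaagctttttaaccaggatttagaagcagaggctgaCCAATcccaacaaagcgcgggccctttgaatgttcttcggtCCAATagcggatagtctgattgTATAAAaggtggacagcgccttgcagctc
Hist1h2bm, chr13:21721914-21722043, + strand: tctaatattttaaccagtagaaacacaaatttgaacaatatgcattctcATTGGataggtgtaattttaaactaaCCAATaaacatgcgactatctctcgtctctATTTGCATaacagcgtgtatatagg
Hist1h1c, chr13:23738677-23738806, + strand: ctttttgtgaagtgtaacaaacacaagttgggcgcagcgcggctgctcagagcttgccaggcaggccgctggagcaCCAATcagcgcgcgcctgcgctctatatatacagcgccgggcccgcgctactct
Hist1h4h, chr13:23530914-23531043, + strand: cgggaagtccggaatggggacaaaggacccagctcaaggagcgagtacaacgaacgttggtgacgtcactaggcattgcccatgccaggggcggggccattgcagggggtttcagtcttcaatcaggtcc
These matches describe letters in the window and say nothing of which factor binds there. Chromatin accessibility data of the study were not analysed here.

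At P1 the 53 genes together were abundant in every population. Their summed level in sham libraries was 2644, 1608, 2391 and 2008 CPM in cardiomyocytes, 1846, 1266, 1591 and 1359 CPM in fibroblasts, 1290, 1697, 1525 and 1387 CPM in leukocytes and 2217, 1539, 1861 and 1489 CPM in endothelial cells. The populations overlapped at this age. At P56 the sham sums were 912, 634, 1436 and 630 CPM in cardiomyocytes, 271, 287, 308 and 282 CPM in fibroblasts, 479, 459, 496 and 584 CPM in leukocytes and 531, 469, 479 and 509 CPM in endothelial cells. No P56 sham library reached the lowest P1 sham library of its own population. The mean at P56 was 41.7% of the P1 mean in cardiomyocytes, 18.9% in fibroblasts, 28.0% in endothelial cells and 34.2% in leukocytes. The cardiomyocyte share depended on the scale. Per M reads of each library's own total, the cardiomyocyte sums were 2589, 1271, 2671 and 2178 reads at P1 and 363, 282, 547 and 326 reads at P56, so that P56 was 17.4% of P1, while fibroblasts stood at 20.8%, endothelial cells at 27.5% and leukocytes at 30.7%. Relative to reads on nuclear protein-coding genes the cardiomyocyte share was 23.5%. The cardiomyocyte library at 1436 CPM, replicate 3, also had the highest share of mitochondrial ribosomal RNA among the P56 sham cardiomyocytes (38.2%), and its part in the sum was not tested.

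**Figure D1:**
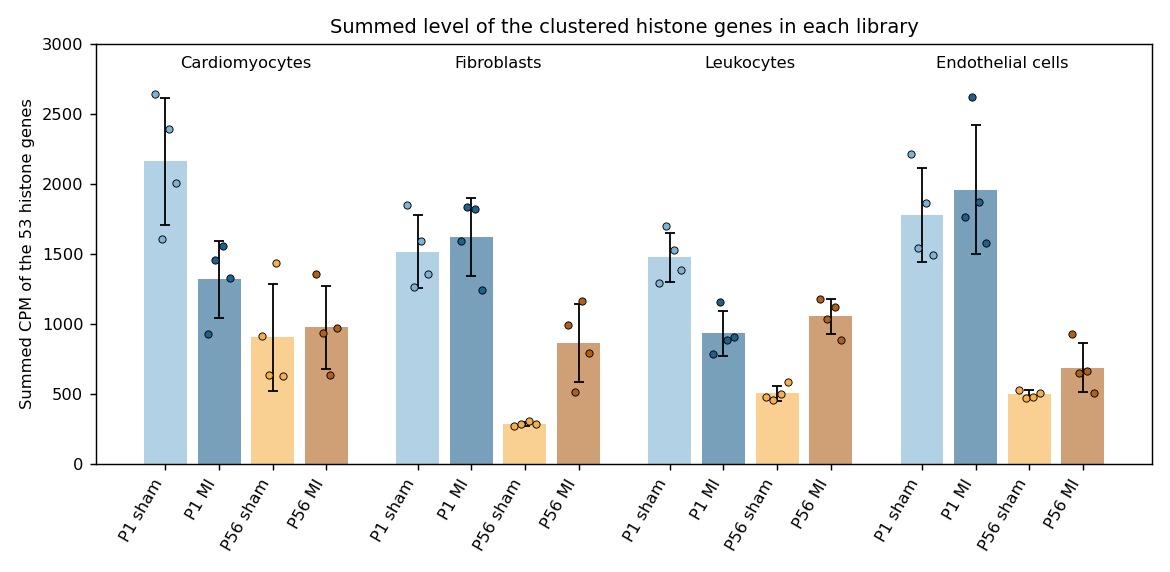
Summed CPM of the 53 histone genes (vertical axis, linear from 0) for the 16 groups. Points are single libraries, bars are group means and whiskers are 1 SD over 4 libraries. P56 sham libraries (orange) lie below the P1 sham libraries (light blue) of the same population, and fibroblasts show the smallest P56 sham mean, 287 CPM.

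Levels per kilobase of the authors' gene lengths put an H1 or H4 gene first in every group. Hist1h4d, an H4 gene, was highest in all 4 P1 sham groups, at 369 CPM per kilobase in cardiomyocytes, 272 in fibroblasts, 273 in endothelial cells and 233 in leukocytes. By class, H4 and H1 held 36.7% and 28.0% of the per-kilobase level in P1 sham cardiomyocytes, H2B 16.7%, H3 15.2% and H2A 3.43%. The shares in the other P1 sham populations were close to these, H3 for instance at 13.8% in fibroblasts, 13.8% in endothelial cells and 14.1% in leukocytes. At P56 the H3 share was 2.87% in cardiomyocytes, 2.45% in fibroblasts, 4.28% in endothelial cells and 8.55% in leukocytes, while the H4 share reached 55.4% in cardiomyocytes and 50.7% in fibroblasts.

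The levels were also held by fewer genes in the older mice. In P1 sham libraries 19 members made up 80% of the summed CPM in each population. In P56 sham libraries 7 members did so in cardiomyocytes, 7 in fibroblasts, 9 in endothelial cells and 14 in leukocytes. The 5 leading members of P56 sham cardiomyocytes were Hist1h1c, Hist1h4h, Hist4h4, Hist1h1e and Hist1h4c, with 68.9% of the sum. Members at or above 1 CPM numbered 48 to 50 in the P1 sham groups, and at P56 they numbered 29 in cardiomyocytes, 20 in fibroblasts, 28 in endothelial cells and 44 in leukocytes.

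**Figure D2:**
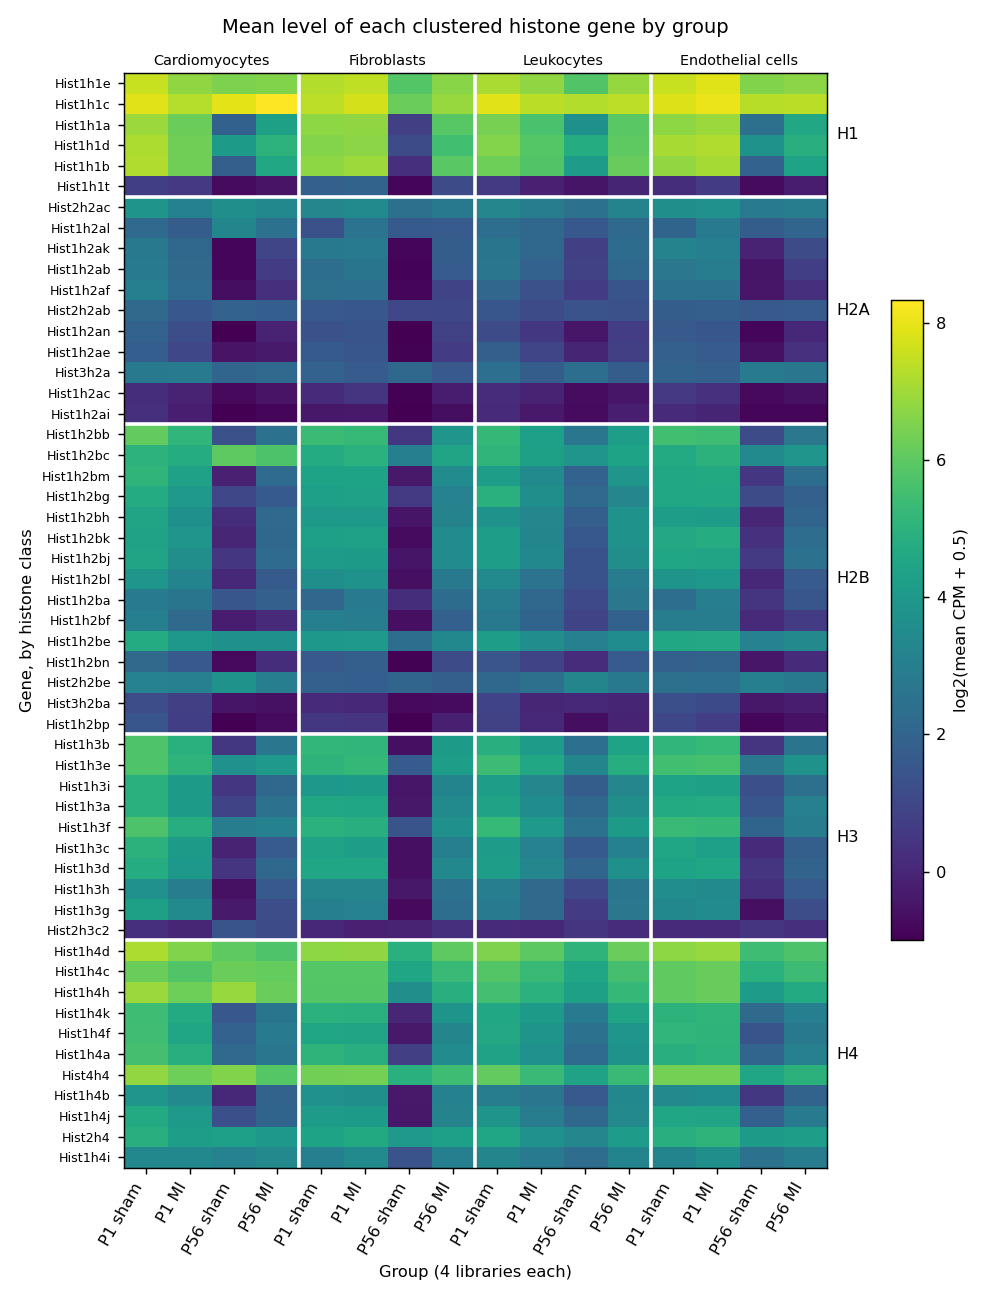
Group means of the 53 histone genes as log2(mean CPM + 0.5), with genes in rows by class and the 16 groups in columns. Most rows darken in the P56 sham columns, and Hist1h1c, Hist1h2bc, Hist1h4c, Hist1h4h and Hist4h4 stay bright in P56 sham cardiomyocytes on the deposited scale.

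The comparison of P56 with P1 sham libraries asks how the histone genes differ between the young and the adult heart. Most members fell with age in every population. With limma on log2(CPM + 0.5) and adjustment over all genes tested, 39 of 51 tested members were lower at P56 and 3 higher in cardiomyocytes, 45 of 48 lower and 0 higher in fibroblasts, 45 of 49 lower and 1 higher in leukocytes, and 44 of 49 lower and 2 higher in endothelial cells. Age changed much of the transcriptome: of all tested genes in cardiomyocytes 70.4% were called, 33.3% higher and 37.0% lower. The share was 67.0% in fibroblasts (34.8% higher, 32.2% lower), 67.1% in leukocytes (32.5% and 34.5%) and 62.9% in endothelial cells (33.6% and 29.3%). The median log2 change of the tested members was -3.19 in cardiomyocytes (-0.09 for all tested genes), -3.60 in fibroblasts (0.03), -2.81 in endothelial cells (0.05) and -1.84 in leukocytes (-0.01). A member that passed the filter of 1 CPM in 4 libraries through its P1 level alone had to be lower at P56, so these medians describe the tested members and not all 53. In cardiomyocytes the 3 higher calls depended on the scale: scaled to total reads, and also to nuclear protein-coding genes, 47 of 51 members were lower and 0 higher. The median of all tested genes moved there too, to -1.10 and -0.85, and the member median to -3.67 and -3.83. Relative to the median gene the member median was -3.10 on the deposited scale, -2.56 by total reads and -2.97 by nuclear protein-coding genes. In the other populations each of these scalings gave 43 to 45 members lower. On the deposited scale, of the 53, 35 were lower in all 4 populations, 5 in none, and 2 (Hist1h2ac and Hist1h2ai) were tested in none. The share of all genes lower in all 4 populations was not counted, so nothing is read from this overlap.

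The make-up of the libraries also differed with age. In cardiomyocyte libraries the summed fibroblast markers went from 3156 to 6987 CPM at P1 to 321 to 989 CPM at P56, the erythroid markers from 1309 to 1847 CPM to 2.66 to 86.7 CPM and the neutrophil markers from 104 to 599 CPM to 0.283 to 2.86 CPM. In leukocyte libraries the endothelial markers went from 3411 to 4030 CPM to 369 to 547 CPM, the erythroid markers from 529 to 787 CPM to 4.31 to 39.03 CPM and the neutrophil markers from 1437 to 2894 CPM to 5.94 to 47.2 CPM. None of these ranges overlapped, 1 of the 6 erythroid markers was at 0 in all P56 sham cardiomyocyte libraries, and the part of these cells in the histone changes with age was not tested.

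Hist1h1b, which encodes a linker histone H1, had the largest fall among members in cardiomyocytes, fibroblasts and endothelial cells. In cardiomyocytes it stood at 205, 85.7, 150 and 148 CPM at P1 and at 1.61, 1.79, 7.51 and 1.12 CPM at P56. In fibroblasts it stood at 154, 88.1, 103 and 77.5 CPM at P1 and at 0.258, 1.48, 0.518 and 0.685 CPM at P56. The ages were far apart in both populations. Its log2 change was -5.65 ± 0.43 (SE; limma, adjusted p = 1.85e-09) in cardiomyocytes, -6.47 ± 0.35 (1.57e-10) in fibroblasts and -4.94 ± 0.31 (1.17e-09) in endothelial cells. In leukocytes, at 77.3, 95.9, 72.7 and 62.6 CPM at P1, it kept 14.8, 19.2, 15.1 and 19.1 CPM at P56, a change of -2.14 ± 0.15 (limma, adjusted p = 7.42e-09).

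Hist1h3b, an H3 gene, followed the same order. Its P1 levels in cardiomyocytes were 67.9, 43.9, 53.8 and 51.2 CPM and its P56 levels 0.869, 1.23, 1.43 and 0.210 CPM. The log2 change was -5.33 ± 0.32 in cardiomyocytes, -5.79 ± 0.30 in fibroblasts, -4.73 ± 0.30 in endothelial cells and -2.45 ± 0.18 in leukocytes, with the groups apart in each. Hist1h1a, another linker histone, fell by 5.09 in cardiomyocytes, 6.04 in fibroblasts, 4.28 in endothelial cells and 2.71 in leukocytes on the log2 scale. In leukocytes the largest falls were those of Hist1h2bj, an H2B gene, at -2.83 ± 0.18 (limma, adjusted p = 2.78e-09), and of Hist1h3f, an H3 gene.

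By class, H3 genes had a median log2 change of -4.33 in cardiomyocytes, -4.38 in fibroblasts and -2.20 in leukocytes, the lowest of the 5 classes there, and of -3.33 in endothelial cells, where the H1 median was -3.34. H4 genes had medians of -1.29 in cardiomyocytes, -2.24 in fibroblasts, -1.91 in endothelial cells and -1.47 in leukocytes. On the deposited scale 9 of 10 tested H3 members were lower in cardiomyocytes and 1 higher, 6 of 11 H4 members were lower, 13 of 15 H2B members were lower and 2 higher, 6 of 9 H2A members were lower and 5 of 6 H1 members were lower. On the deposited scale summed H3 levels at P56 were 8.56% of those at P1 in cardiomyocytes and 3.39% in fibroblasts, and summed H4 levels were 58.5% and 25.5%.

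**Figure D3:**
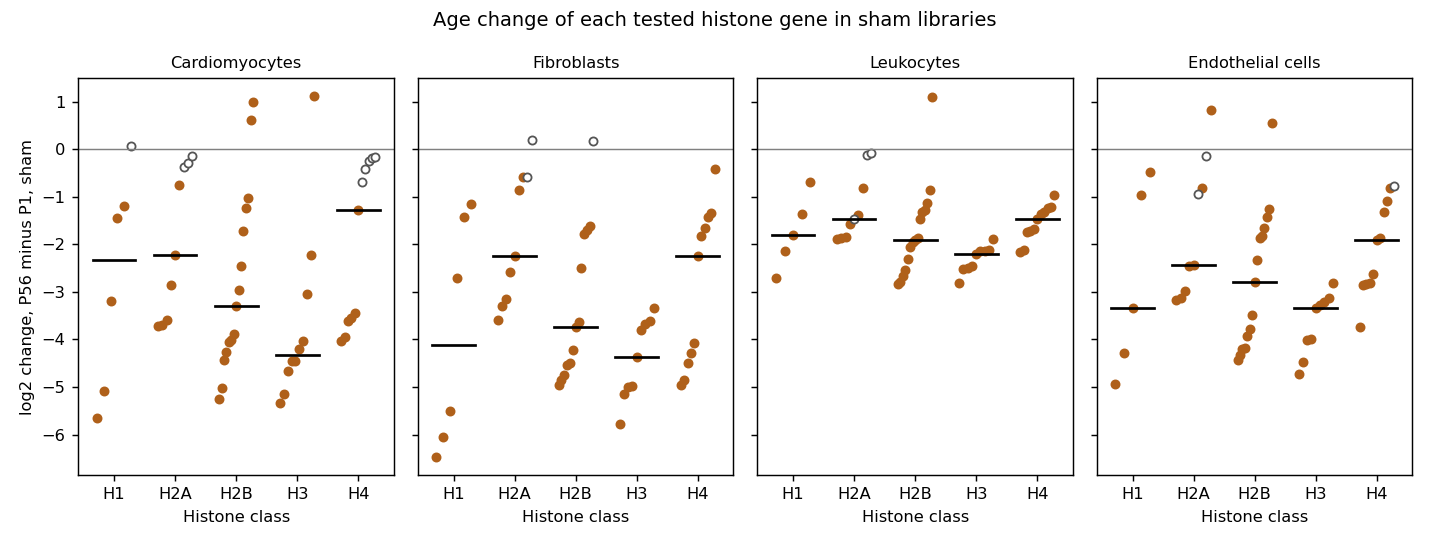
log2 change from P1 to P56 in sham libraries (vertical axis) of each tested histone gene, by class, in the 4 populations. Filled points passed adjusted p under 0.05, open points did not, and bars are class medians. On this deposited scale the cardiomyocyte H4 genes split into a low set and a set near 0, and the 3 genes called higher lie above 0. Scaled to total reads 0 members were called higher there and 47 lower.

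A small set of members stood apart from the rest in adult cardiomyocytes, and whether they rose, held or fell depended on the scale. Hist1h2bc, an H2B gene reported outside S phase, stood at 33.9, 37.4, 30.3 and 25.9 CPM in P1 sham cardiomyocytes and at 63.9, 60.7, 68.1 and 62.6 CPM in P56 sham cardiomyocytes. Every P56 library was above every P1 library, and the log2 change was 1.00 ± 0.19 (limma, adjusted p = 0.000164). It was 0.18 ± 0.19 (0.41) when scaled to nuclear protein-coding genes and -0.17 ± 0.22 (0.483) when scaled to total reads. Relative to the median gene, Hist1h2bc was 1.09, 1.03 and 0.93 higher on the log2 scale by the 3 scalings. The same gene fell by 1.70 in fibroblasts, 1.25 in endothelial cells and 1.27 in leukocytes on the log2 scale. Its age change was higher in cardiomyocytes than in leukocytes by 2.27 ± 0.23 (limma on the 32 sham libraries, adjusted p = 1.42e-09), and by 1.25 ± 0.25 (5.1e-05) when scaled to total reads.

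Hist1h1c, the linker histone with the highest summed level, was at 264, 190, 282 and 209 CPM in P1 and at 239, 196, 332 and 226 CPM in P56 sham cardiomyocytes. The ranges overlapped, with a log2 change of 0.06 ± 0.21 (limma, adjusted p = 0.804). Scaled to nuclear protein-coding genes Hist1h1c fell by 0.77 ± 0.19 there, and scaled to total reads by 1.12 ± 0.23 (adjusted p = 0.000183). It fell in fibroblasts, from 168 ± 32.5 to 74.1 ± 4.28 CPM (SD, n = 4; limma log2 change -1.16 ± 0.15), and by 0.68 in leukocytes and 0.48 in endothelial cells.

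The H4 genes Hist1h4h, Hist4h4 and Hist1h4c also overlapped between the ages in cardiomyocytes. Hist1h4h was at 143, 104, 140 and 96.2 CPM in P1 and at 120, 81.1, 211 and 58.0 CPM in P56 sham cardiomyocytes, a log2 change of -0.19 ± 0.38 (limma, adjusted p = 0.671). Hist4h4 changed by -0.42 ± 0.38 (adjusted p = 0.329) and Hist1h4c by -0.16 ± 0.40 (adjusted p = 0.73), and both were spread widely at P56, Hist4h4 from 49.0 to 163 CPM. The highest value of each was in replicate 3, the library with 38.2% mitochondrial ribosomal RNA. Scaled to total reads all 3 were called lower in cardiomyocytes, Hist1h4h by 1.36 ± 0.34, Hist4h4 by 1.60 ± 0.33 and Hist1h4c by 1.33 ± 0.35 on the log2 scale, and they were also called lower when scaled to nuclear protein-coding genes. In fibroblasts, leukocytes and endothelial cells all 3 genes fell, Hist1h4h by 2.24, 1.24 and 1.91 on the log2 scale.

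Hist2h2be, an H2B gene also reported outside S phase, rose with age in leukocytes and endothelial cells under each scaling, and in cardiomyocytes on the deposited scale and by median-of-ratios scaling. In cardiomyocytes it went from 9.65, 5.75, 8.50 and 9.38 CPM to 18.1, 10.0, 10.5 and 14.4 CPM, with every P56 library above every P1 library. The log2 change was 0.63 ± 0.21 (limma, adjusted p = 0.0125) in cardiomyocytes, 1.09 ± 0.21 (0.000244) in leukocytes and 0.55 ± 0.17 (0.00974) in endothelial cells, and in fibroblasts it was 0.17 ± 0.18 (0.408). Scaled to nuclear protein-coding genes the cardiomyocyte change of Hist2h2be was -0.17 ± 0.21 (0.468), and scaled to total reads -0.49 ± 0.27 (0.0997). Hist3h2a, an H2A gene that shares its locus with Trim17, rose in endothelial cells by 0.83 ± 0.18 (limma, adjusted p = 0.000803) and fell in cardiomyocytes by 0.75. Hist2h3c2, an H3 gene of the Hist2 cluster, rose in cardiomyocytes from 0.740 ± 0.377 to 2.17 ± 0.716 CPM (SD, n = 4; limma log2 change 1.11 ± 0.26), near the limit of detection, a call lost when scaled to nuclear protein-coding genes (0.53 ± 0.25) or to total reads (0.23 ± 0.22).

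The list of members reported outside S phase holds 8 genes, 6 of them in the table (Hist1h1c, Hist1h2bc, Hist2h2be, Hist3h2a, Hist3h2ba and Hist4h4). In cardiomyocytes 2 rose and 2 fell with age, with a median of -0.18 against -3.19 for all tested members, and scaled to nuclear protein-coding genes or to total reads 0 rose and 4 fell. In leukocytes 1 rose and 4 fell, in endothelial cells 2 rose and 4 fell, and in fibroblasts 3 of 5 tested fell. Of all tested genes 62.9% to 70.4% were called for age in the 4 populations, so nothing is read from the share of this list called. Hist3h2ba, an H2B gene, was among those that fell in cardiomyocytes (-1.71 ± 0.21), from 1.83 ± 0.293 to 0.225 ± 0.196 CPM (SD, n = 4). The members known from testis were low throughout: Hist1h1t had group means of at most 3.41 CPM and Hist1h2ba of at most 7.40 CPM, and both fell with age in fibroblasts, by 2.71 and 1.79 on the log2 scale.

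**Figure D4:**
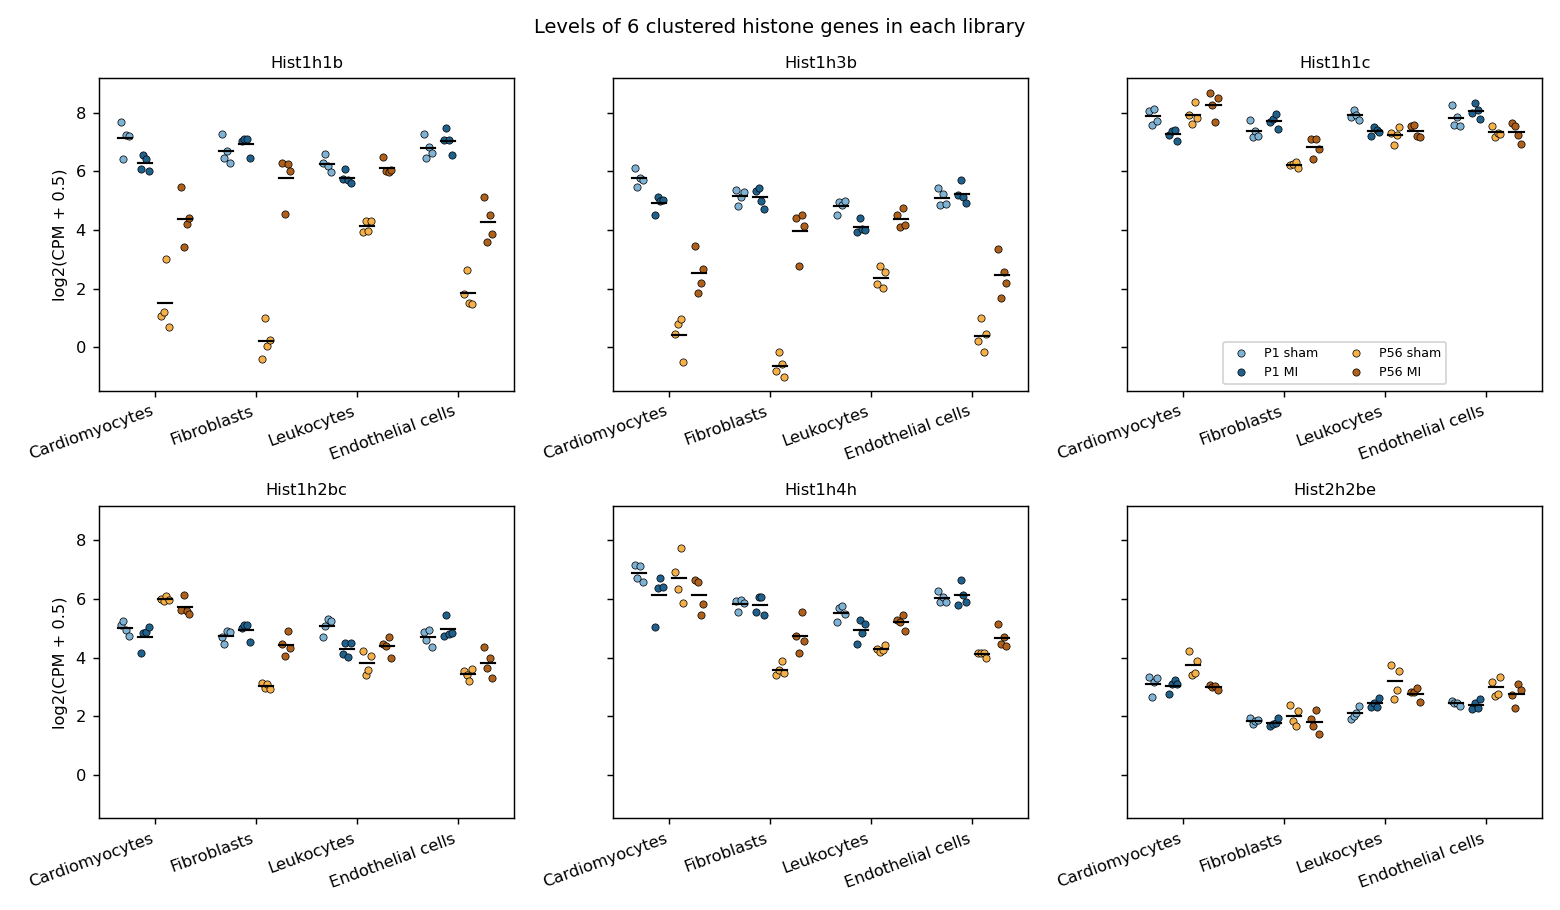
log2(CPM + 0.5) of 6 histone genes in each of the 64 libraries, by population and group, with bars at group means. Hist1h1b and Hist1h3b drop in P56 sham libraries (orange) and are higher after MI at P56 (brown), and on this deposited scale Hist1h2bc is higher in P56 than P1 cardiomyocytes, and Hist1h1c and Hist1h4h overlap between the ages there. Scaled to total reads Hist1h2bc is not higher there, with a log2 change of -0.17.

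Members with a longer 3′ end in the GENCODE M21 models tended to fall less. These models differ from those behind the authors' gene lengths. Hist1h1d, for example, is 744 bases by the authors' length but has 4931 bases after its stop codon in GENCODE M21. Models that stop at the stop codon count as short here, and their true 3′ ends are not known from them. Among tested members the age change was set against the number of bases after the stop codon. The Spearman correlation was 0.47 in cardiomyocytes (n = 50), 0.33 in fibroblasts (n = 47), 0.31 in leukocytes (n = 48) and 0.35 in endothelial cells (n = 48). Many members share a locus and much of their sequence, so these correlations are a description. The 18 cardiomyocyte members with at least 300 such bases had a median log2 age change of -0.89, and the 32 with fewer had -3.80. In leukocytes these medians were -1.36 and -1.90. The exceptions ran both ways: Hist1h4h, with 93 bases after its stop codon, was not called in cardiomyocytes on the deposited scale, and some long-ended members fell by up to 4.45 on the log2 scale.

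Whether the populations differ was asked in the sham libraries, setting leukocytes against each of the others. At P1, where the summed levels overlapped, 24 of 51 tested members were lower in leukocytes than in cardiomyocytes and 0 higher (66.4% of all tested genes were called, 36.0% higher and 30.5% lower), 4 were higher and 2 lower against fibroblasts (63.9%, as 33.0% and 30.9%), and 2 were higher and 3 lower against endothelial cells (52.6%, as 26.6% and 26.0%). The largest P1 difference from cardiomyocytes was that of Hist1h3g, an H3 gene, at -1.51 ± 0.20 (limma, adjusted p = 7.63e-08). Against fibroblasts Hist1h1t was lower in leukocytes by 1.30 ± 0.17 on the log2 scale, and Hist1h2ba, Hist3h2ba and Hist1h4b differed by 0.88, 0.70 and -0.78. The counts against cardiomyocytes and endothelial cells at P1 moved with single libraries: the former was 14 without P1 sham cardiomyocyte replicate 1, and the latter ranged from 2 to 8. Scaled to total reads the former was 16 and the latter 18, all lower in leukocytes.

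At P56 more members were called higher than lower in leukocytes against each of the other populations. Relative to fibroblasts 39 members were higher and 2 lower (67.9% of genes called, 33.7% higher and 34.2% lower), relative to endothelial cells 27 were higher and 3 lower (65.4%, as 33.0% and 32.4%), and relative to cardiomyocytes 27 were higher and 13 lower (78.4%, as 41.4% and 36.9%). Hist1h1b was 3.91 ± 0.35 higher than in fibroblasts on the log2 scale, 2.63 ± 0.35 higher than in cardiomyocytes and 2.26 ± 0.35 higher than in endothelial cells. Hist1h1d, another linker histone, was 3.72 ± 0.27 higher than in fibroblasts. On the other side, leukocytes had less Hist1h4h than cardiomyocytes (-2.42 ± 0.22; limma, adjusted p = 2.36e-11), less Hist1h2bc (-2.19 ± 0.16; 1.8e-13) and less Hist4h4 (-2.01 ± 0.24; 8.69e-09). These 3 were also lower in leukocytes when scaled to total reads, Hist1h4h by 1.26 ± 0.23, Hist1h2bc by 1.04 ± 0.17 and Hist4h4 by 0.86 ± 0.27 on the log2 scale. The 13 members lower than in cardiomyocytes became 4 when scaled to nuclear protein-coding genes and 3 when scaled to total reads, with 31 and 34 higher. Against endothelial cells total-read scaling gave 17 higher and 6 lower. The summed P56 sham means were 505 CPM in leukocytes, 497 in endothelial cells, 903 in cardiomyocytes and 287 in fibroblasts. Per M reads of each library's own total they were 496, 609, 380 and 320 reads, so leukocytes were not highest on either scale. Hist2h4, an H4 gene, was lower in leukocytes than in fibroblasts and endothelial cells by 0.68 and 0.76.

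The age change itself also differed between populations. Of 51 members tested across the 32 sham libraries, 31 fell further in cardiomyocytes than in leukocytes and 6 fell less or rose (58.2% of genes called, 29.3% lower and 29.0% higher), 30 fell further in fibroblasts and 1 less (51.7%, as 23.9% and 27.8%), and 26 fell further in endothelial cells and 1 less (41.0%, as 18.7% and 22.4%). The 6 of the cardiomyocyte comparison were Hist1h1c (0.74), Hist1h2bc (2.27), Hist1h4c (1.19), Hist1h4h (1.05), Hist2h3c2 (0.79) and Hist4h4 (1.30), as log2 differences. Scaled to nuclear protein-coding genes or to total reads, 1 of the 51 was called in this direction, Hist1h2bc. At the other end Hist1h1b fell further by 3.51 ± 0.49 in cardiomyocytes, 4.33 ± 0.49 in fibroblasts and 2.80 ± 0.49 in endothelial cells. The cardiomyocyte markers present in leukocyte libraries rose with age there too, 11 of 12 being called higher, and their part in these differences was not tested.

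The comparison of MI with sham at P1 asks how the regenerating heart responds after 3 days. In fibroblasts and endothelial cells no member was called (0 of 48 and 0 of 49 by limma and by edgeR, with 2 and 1 at an unadjusted p under 0.05). Of all genes 2.37% were called in fibroblasts, 1.99% higher and 0.375% lower, and 0.216% in endothelial cells, 0.0891% higher and 0.127% lower. The median member change was 0.01 and 0.07 there. In fibroblasts Hist1h1b had a log2 difference of 0.25 ± 0.35 and Hist1h3b of -0.03 ± 0.30.

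In cardiomyocytes no member passed the test after MI at P1, although the deposited summed levels were apart. The summed level was 930, 1459, 1554 and 1329 CPM after MI against 2644, 1608, 2391 and 2008 CPM in sham, without overlap. Per M reads of each library's own total, MI gave 1050, 1665, 1611 and 1274 reads, and the groups overlapped. The tested members had changes of -0.99 to 0.04 with a median of -0.73, against -0.03 for all genes. None of 51 was called by limma or edgeR, 27 had an unadjusted p under 0.05, and 0.343% of all genes were called, 0.285% higher and 0.0582% lower. Without P1 sham replicate 2, the library with 16.6% 18S ribosomal RNA, 1 member was called lower. Hist1h1b changed by -0.87 ± 0.43 (limma, adjusted p = 0.461) and Hist1h2bc by -0.28 ± 0.19 (0.635). The summed endothelial markers in these libraries went from 2152 to 3482 CPM in sham to 1780 to 1993 CPM after MI, and the leukocyte markers from 57.5 to 121 CPM to 103 to 199 CPM, and the part of either was not tested.

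In leukocytes at P1 40 of 49 members were lower after MI and 0 higher (45.2% of genes called, 22.6% higher and 22.6% lower). The count was 22 when scaled to total reads. The summed level was 63.2% of sham in leukocytes and 60.9% in cardiomyocytes, and the responses of the populations were not tested against each other. Hist1h2bg, an H2B gene, went from 21.1, 32.5, 30.9 and 34.3 CPM in sham to 8.72, 17.9, 8.84 and 12.8 CPM after MI, a log2 change of -1.30 ± 0.31 (limma, adjusted p = 0.00268). Hist1h3f, an H3 gene, went from 28.9, 40.8, 36.9 and 43.1 CPM to 11.6, 25.1, 11.3 and 16.5 CPM (-1.25 ± 0.33; 0.00571). The groups did not overlap for either gene. Falls were seen in all classes, in 4 of 5 H1, 6 of 9 H2A, 12 of 15 H2B, 9 of 9 H3 and 9 of 11 H4 members, and the median was -0.73.

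The make-up of the P1 leukocyte libraries moved at the same time. All 9 endothelial markers fell after MI, from a summed 3411 to 4030 CPM to 419 to 805 CPM, all 6 erythroid markers fell, from 529 to 787 CPM to 58.0 to 114 CPM, and 11 of 12 cardiomyocyte markers fell, from 18311 to 24058 CPM to 5502 to 15208 CPM. The 6 leukocyte markers all rose. None of these markers was at 0, and their part in the lower histone levels was not tested.

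At P56 members were called higher after MI in every population. Called higher were 17 of 51 members in cardiomyocytes, 42 of 48 in fibroblasts, 29 of 49 in endothelial cells and 42 of 49 in leukocytes. In cardiomyocytes, fibroblasts and leukocytes 1 member each was lower, and in endothelial cells 0. Of all tested genes 9.69% were called in cardiomyocytes (8.66% higher, 1.03% lower), 50.0% in fibroblasts (24.8% and 25.2%), 59.5% in leukocytes (30.7% and 28.8%) and 20.4% in endothelial cells (12.5% and 7.88%). The member median was 0.78 in cardiomyocytes (0.08 for all genes), 2.38 in fibroblasts (-0.03), 0.83 in endothelial cells (0.02) and 1.37 in leukocytes (0.02). In all 4 populations 17 members rose, and 9 were called higher in none. How many of all genes rose in all 4 was not counted, so nothing is read from this overlap either. The 17 included 7 H3 genes, the linker histones Hist1h1a and Hist1h1b, and Hist1h2bm, Hist1h2bj and Hist1h2bk. Of the 9, Hist2h2be, Hist3h2a, Hist1h2al and Hist2h2ab were tested in all 4 populations. Hist3h2ba and Hist1h2bp were not tested in fibroblasts, Hist2h3c2 was tested in cardiomyocytes alone, and Hist1h2ac and Hist1h2ai in none.

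In fibroblasts the summed level was 990, 513, 1167 and 790 CPM after MI and 271, 287, 308 and 282 CPM in sham, without overlap, a 3.02-fold higher mean. Hist1h1b went from at most 1.48 CPM in sham to 77.9, 23.0, 75.7 and 63.5 CPM (log2 change 5.56 ± 0.35; limma, adjusted p = 7.97e-09), and Hist1h1a changed by 5.09 ± 0.29 (4.76e-09). All 6 H1 and 9 H3 members tested rose, as did 12 of 13 H2B, 10 of 11 H4 and 5 of 9 H2A members. Hist3h2a fell by 0.55 ± 0.18, a call lost when scaled to total reads. The summed H3 level was 14.1-fold higher. Leukocyte markers stayed between 3.78 and 13.6 CPM in these libraries. Their fibroblast markers rose from 28822 to 40052 CPM in sham to 55904 to 80550 CPM after MI, and their cardiomyocyte markers fell from 2809 to 5941 CPM to 242 to 1042 CPM, both without overlap, and the part of this shift in the histone changes was not tested.

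In leukocytes the sums were 1176, 1033, 1124 and 887 CPM after MI, each above the highest sham library (584 CPM). Hist1h1a changed by 2.24 ± 0.14 (limma, adjusted p = 1.25e-08). Hist1h2bj went from 1.85, 1.73, 2.13 and 2.46 CPM to 11.2, 9.65, 15.3 and 10.3 CPM, a change of 2.24 ± 0.18 (1.81e-07). All 11 H4 and 9 H3 members rose, and Hist3h2a fell by 0.62 ± 0.18, a call lost when scaled to total reads. Beside these, the summed cardiomyocyte markers of the leukocyte libraries fell from 74717 to 205385 CPM in sham to 5151 to 18824 CPM after MI (12 of 12 lower), and their part in the histone changes was not tested.

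In cardiomyocytes 33 of the 51 tested members were not called after MI at P56. The sums overlapped with sham, at 1358, 937, 632 and 973 CPM after MI, 1.08 times the sham mean on the deposited scale. Per M reads of each library's own total the mean was 1.31 times that of sham. Relative to reads on nuclear protein-coding genes it was 1.06 times. By class the ratio ran from 0.783 for H4 to 1.95 for H3 on the deposited scale, and class ratios were not computed on the others. The members called higher included genes that were low in sham. Hist1h1b reached 43.4, 10.1, 17.98 and 20.9 CPM (2.88 ± 0.43; limma, adjusted p = 0.000231), above all 4 sham libraries, and Hist1h1a changed by 2.38 ± 0.32. By class 7 of 10 H3 members rose and 1 of 11 H4 members did. Hist1h1c, Hist1h2bc and Hist1h4h, which were abundant in sham, changed by 0.35 ± 0.21, -0.30 ± 0.19 and -0.59 ± 0.38 and were not called. Hist2h2be fell, to 7.92, 7.50, 7.65 and 6.94 CPM from between 10.0 and 18.1 CPM (-0.74 ± 0.21; 0.0299), but scaled to total reads it was -0.46 ± 0.27 (0.275).

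The marker sums of other cell types rose in the same cardiomyocyte libraries. Leukocyte markers went from 8.44 to 47.8 CPM in sham to 55.1 to 154 CPM after MI (6 of 6 higher), monocyte and macrophage markers from 53.1 to 240 CPM to 273 to 631 CPM (3 of 5 higher), and fibroblast markers from 321 to 989 CPM to 1539 to 3624 CPM (4 of 9 higher), none at 0. Their part in the histone changes was not tested. In endothelial cells, where 29 members rose, Hist1h1b reached 34.2, 11.6, 22.2 and 14.1 CPM from at most 5.64 CPM (2.41 ± 0.31; limma, adjusted p = 8.03e-05) and Hist1h3b changed by 2.08 ± 0.30. Leukocyte markers there went from 9.11 to 12.8 CPM to 29.7 to 71.3 CPM, and cardiomyocyte markers from 9104 to 20780 CPM to 3839 to 8532 CPM without overlap, and the part of either was not tested. The endothelial count was 20 without P56 MI replicate 1.

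**Figure D5:**
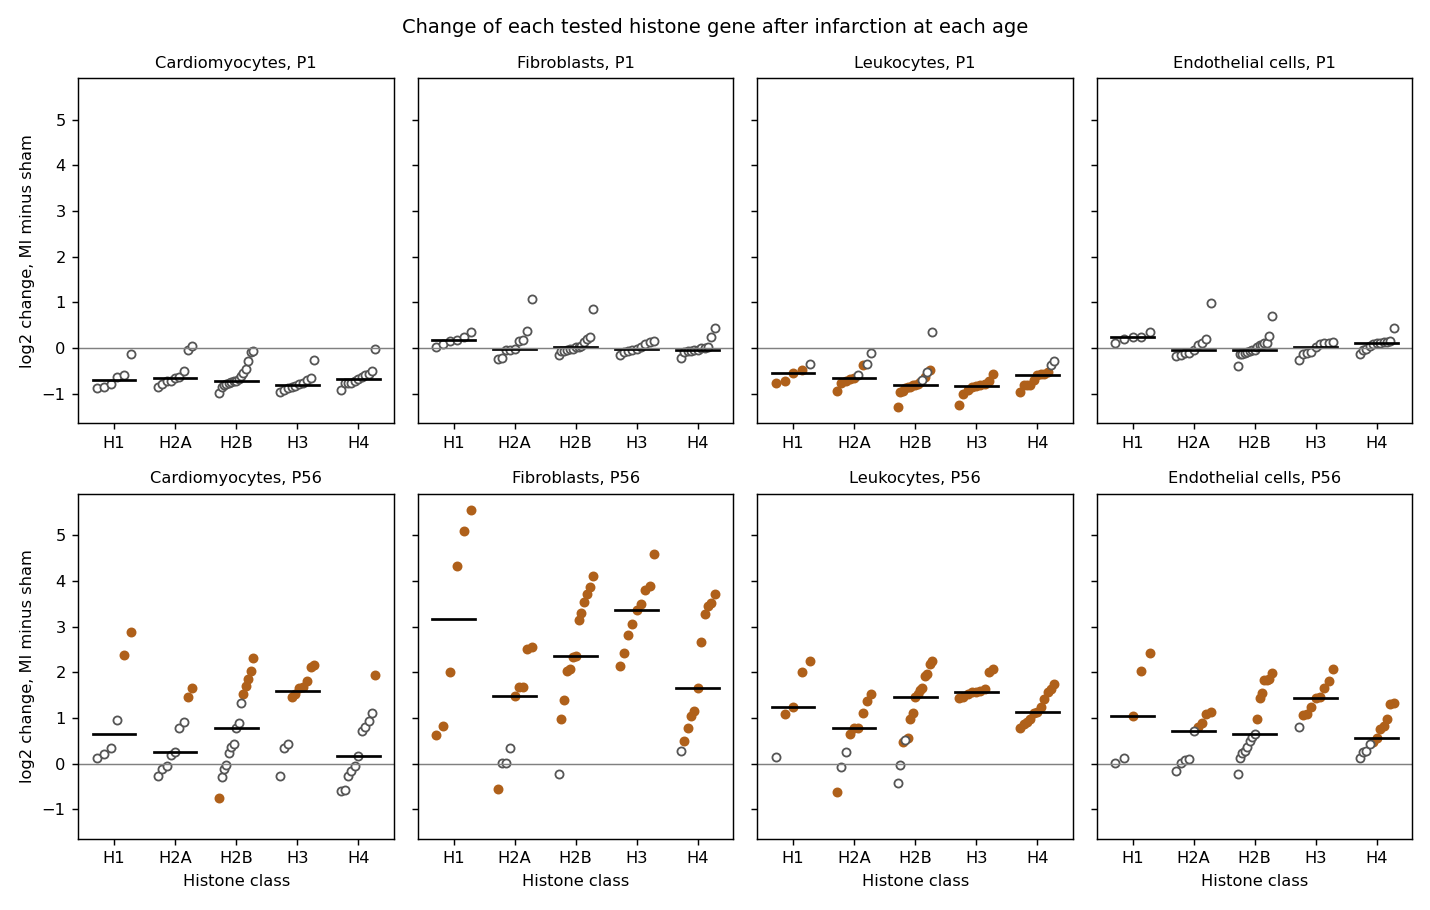
log2 change after MI (vertical axis) of each tested histone gene by class, at P1 (upper row) and P56 (lower row), in the 4 populations. Filled points passed adjusted p under 0.05, open points did not, and bars are class medians. At P1 calls appear in leukocytes alone and are downward, and at P56 42 fibroblast and 42 leukocyte genes are called higher.

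The difference between the responses at P56 and P1 was tested directly. It was positive for 18 of 51 members in cardiomyocytes and negative for 0 (1.75% of genes called, 1.69% positive and 0.0582% negative), positive for 38 of 48 and negative for 0 in fibroblasts (31.7%, as 16.2% and 15.5%), positive for 45 of 49 and negative for 1 in leukocytes (45.2%, as 23.7% and 21.5%), and positive for 13 of 49 and negative for 0 in endothelial cells (5.41%, as 3.39% and 2.02%). Hist1h1b had the largest difference in 3 populations, at 3.75 ± 0.61 (limma, adjusted p = 0.00309) in cardiomyocytes, 5.32 ± 0.49 (2.54e-06) in fibroblasts and 2.17 ± 0.43 (0.0112) in endothelial cells. Hist1h2bm in cardiomyocytes differed by 3.04 ± 0.45 and Hist1h2bh in endothelial cells by 2.08 ± 0.34, both H2B genes. In leukocytes Hist1h2bk led with 3.17 ± 0.29, followed by Hist1h2bj with 3.09 ± 0.26, and the negative member was Hist2h2be (-0.76 ± 0.30; 0.0477), a call lost by both scalings to reads. The endothelial count was 7 without P1 sham replicate 3 or without P1 MI replicate 1, and 8 without P56 sham replicate 3.

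The genes that work with histones during replication were set beside the members. All 25 genes of an S phase list fell with age in each population, with medians of -3.52, -2.83, -1.79 and -2.47 in cardiomyocytes, fibroblasts, leukocytes and endothelial cells. Of all tested genes 37.0%, 32.2%, 34.5% and 29.3% were called lower with age, in that order. Rrm2, a subunit of ribonucleotide reductase, changed by -4.86 ± 0.24 in cardiomyocytes and -3.05 ± 0.14 in leukocytes. After MI at P56 17 of the 25 S phase genes rose in cardiomyocytes, 25 in fibroblasts, 24 in endothelial cells and 25 in leukocytes. All 10 genes of a G2 and M phase list rose in each population. Of all tested genes 8.66%, 24.8%, 12.5% and 30.7% were called higher after MI at P56, in the same order of populations. Over the 64 libraries the summed histone and summed S phase levels had a Pearson r of 0.75 on the log2 scale and a Spearman rho of 0.83; libraries share groups, populations and depth, so these are descriptions.

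The ratio of the histone sum to the S phase sum, which no scaling of a library changes, was highest in P56 sham cardiomyocytes. It was 1.35 ± 0.118, 1.14 ± 0.0998, 1.42 ± 0.110 and 1.42 ± 0.199 (SD, n = 4) in P1 sham cardiomyocytes, fibroblasts, leukocytes and endothelial cells. At P56 it was 1.63 ± 0.0668 in sham fibroblasts, 1.60 ± 0.332 in leukocytes and 1.88 ± 0.165 in endothelial cells, and 8.11 ± 3.96 in cardiomyocytes, with a lowest library at 5.27. After MI at P56 the cardiomyocyte ratio was 4.53 ± 1.69, from 2.17 to 6.06.

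Genes for making and handling histones were also listed. Slbp, which encodes the stem-loop binding protein, fell with age by 1.76 ± 0.20 in cardiomyocytes, 1.49 ± 0.11 in fibroblasts, 1.29 ± 0.10 in endothelial cells and 1.24 ± 0.10 in leukocytes on the log2 scale. After MI at P56 it rose by 0.56, 0.95 and 0.58 in fibroblasts, leukocytes and endothelial cells, and changed by 0.22 ± 0.20 in cardiomyocytes, where it was not called. The counts of listed genes called for age below stand beside the 62.9% to 70.4% of all genes called for age, and nothing is read from their shares. Of the 16 genes of histone transcription and 3′ end processing, 9 fell with age and 3 rose in cardiomyocytes, 8 fell in fibroblasts, 10 fell in endothelial cells, and 8 fell and 2 rose in leukocytes. Scaled to total reads 13 of them fell and 1 rose in cardiomyocytes, and 5 fell in fibroblasts. Among 15 histone chaperone genes 10 fell and 2 rose in cardiomyocytes, 11 fell in fibroblasts, 12 in endothelial cells and 9 in leukocytes, and scaled to total reads 15 fell in cardiomyocytes. The largest fall of these in cardiomyocytes was that of Chaf1b, a subunit of the replication-coupled assembly factor (-4.77 ± 0.28).

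Variant histones encoded outside the clusters gave 7 lower and 1 higher of 11 in cardiomyocytes with age. They gave 10 lower in fibroblasts, 10 lower in endothelial cells and 7 lower of 10 tested in leukocytes. Scaled to total reads 10 of 11 were lower and 0 higher in cardiomyocytes. H2afz fell by 2.88 in cardiomyocytes, 2.46 in fibroblasts, 1.91 in endothelial cells and 1.35 in leukocytes on the log2 scale. After MI at P56 6 rose in fibroblasts, 3 in endothelial cells and 6 in leukocytes. Of all tested genes 24.8%, 12.5% and 30.7% were called higher there, in that order, and nothing is read from these counts. In cardiomyocytes H2afz had a log2 difference of 0.35 ± 0.19 after MI at P56 (limma, adjusted p = 0.277).

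Of 18292 other genes, those whose group means most resembled the summed histone level over the 16 groups were Gm11246 (r = 0.96), Hnrnpl (0.96), Haus4 (0.96), Alyref (0.95), H2afx (0.95), 2700094K13Rik (0.94), Gm8494 (0.94), Ncapd2 (0.94), Gm11223 (0.93) and Cenpq (0.93). This is a ranking over 16 means, with no test.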

How the data were processed

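RNA of 64 libraries was sequenced by the submitters as 50-base single-end reads from ribosome-depleted, stranded total RNA libraries, per the labels' protocols. Per the submitters' processing notes, STAR, HTSeq, Trimmomatic and edgeR were used, and GRCm38, mm10 and GRCh38 are listed as builds; neither versions nor roles are recorded. The strand setting and the treatment of multiply mapped reads are not given in the sources used here. The authors deposited a table of CPM per gene. Its columns sum to between 776590 and 2627530 CPM, and 15 of 64 exceed the total the unit implies, among them all 8 of P56 cardiomyocytes. The deposited values were therefore treated as a scaled signal, and a log-scale test was kept. In every column 100% of values were whole multiples of 1 read (within 0.01), which gave the recovered read counts.

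Genes with at least 1 CPM in 4 fitted libraries were tested with limma 3.58.1 (R 4.3.3, trend) on log2(CPM + 0.5), and p-values were adjusted by Benjamini-Hochberg over all genes tested; calls are at 0.05. Each population was fitted alone (16 libraries), and populations were compared in the 32 sham libraries. The fold changes understate those of low genes. edgeR 4.0.16 on recovered reads, other pseudocounts (0.1 and 1), scalings (median of ratios, nuclear protein-coding genes and, chosen after seeing the data, total reads), no filter, a replicate block, omission of libraries over 5% 18S and omission of each library were alternatives. The methods were tested on simulated data. No 2 libraries of a group were identical (96 pairs).

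Members and lists were chosen with earlier results of these data known. Named with values are the 3 members per class highest per kilobase, the 2 largest called changes in each direction per comparison, members reported outside S phase or from testis, and the 3 smallest adjusted p per other list for age. Same-numbered libraries of leukocytes and each other population were compared in sham only, and MI libraries were not compared across populations. They deviated together at P56 sham (lowest correlation 0.199 to 0.251 over 3 comparisons) and not at P1 sham. The block moved no count of the P56 sham comparisons by over 1.5 times. Of 53 members, 50 matched GENCODE M21 by identifier and 2 by symbol.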

Additional observations from a re-analysis of the deposited data

Results flagged for a closer look

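In 14 of 320 groups of 4 libraries, over 19 named members and the summed level, 1 library stood far from the other 3 (Dixon's criterion), where chance gives about 1 in 20. Hist1h2al was uneven in 4 groups: 4.24 CPM in P1 MI endothelial replicate 1 (others 7.11 to 7.42), 10.6 in P1 MI fibroblast replicate 3 (2.92 to 4.06), 12.3 in P1 sham cardiomyocyte replicate 2 (1.16 to 1.68) and 32.3 in P56 sham cardiomyocyte replicate 3 (0 to 4.53).

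In P1 MI endothelial replicate 2, Hist1h2bb stood at 69.6 CPM (others 31.5 to 35.8), Hist1h2bc at 43.7 (26.1 to 28.0) and Hist2h2ac at 16.01 (11.1 to 11.8). Hist1h3e stood at 21.2 CPM in P56 MI endothelial replicate 1 (9.75 to 11.5) and at 3.30 in P56 sham fibroblast replicate 1 (2.52 to 2.65). Hist1h4h was 15.5 CPM in P56 sham endothelial replicate 4 (17.3 to 17.5), and Hist1h4d 55.1 in P1 MI cardiomyocyte replicate 1 (104 to 110).

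In leukocytes Hist1h2bm was 17.98 CPM in P56 MI replicate 1 (12.5 to 13.3), Hist1h3b 20.9 in P1 MI replicate 2 (14.8 to 15.7) and Hist3h2ba 1.03 in P56 sham replicate 4 (0.310 to 0.393).

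By direct tests of the difference (limma), the MI response differed between P56 and P1 for 18 of 51 members in cardiomyocytes and 38 of 48 in fibroblasts. It differed for 13 of 49 in endothelial cells and 46 of 49 in leukocytes. Of all tested genes 1.75%, 31.7%, 5.41% and 45.2% were called, in that order. The age change differed from that of leukocytes for 37 of 51 members in cardiomyocytes, 31 of 51 in fibroblasts and 27 of 51 in endothelial cells. Of all tested genes 58.2%, 51.7% and 41.0% were called, in that order.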

How the results depend on the processing

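The alternatives were followed for 67 values, the 2 largest called changes in each direction per comparison. Of 2179 alternative values for these, 2105 kept direction and side of the threshold, 73 lost the call and 1 reversed. This was Hist1h2bc with age in cardiomyocytes, -0.17 when scaled to total reads. Other members named above are not among the 67 and can change sign too. Hist2h2be with age in cardiomyocytes was called higher on the deposited scale, and its change was negative when scaled to nuclear protein-coding genes or total reads. That scaling was chosen after seeing the data. Counts of members called that moved by over 1.5 times were these, and the cause was not tested. In cardiomyocytes after MI at P1 the count was 1 without libraries over 5% 18S and 0 to 1 with 1 library left out. In leukocytes after MI at P1 (40 called) it was 22 when scaled to total reads. For leukocytes against endothelial cells at P1 (5 called) it was 3, 2 higher and 1 lower, at a pseudocount of 0.1, 9 (2 higher, 7 lower) with the replicate block, 18 (all lower) when scaled to total reads and 2 to 8 with 1 library left out. There the balance turned to higher without P1 sham leukocyte replicate 1 (2) or endothelial replicate 3 (3). It was 2 without endothelial replicate 1, 3 without endothelial replicate 2 or leukocyte replicate 4, and 8 without cardiomyocyte replicate 2. For leukocytes against fibroblasts at P1 (6 called) it was 10 when scaled to nuclear protein-coding genes. For leukocytes against cardiomyocytes at P1 (24 called) it was 14 to 30, and for the difference of endothelial responses (13 called) 7 to 17, each with 1 library left out. The replicate block moved no other count by over 1.5 times. No endothelial fit held a library over 5% 18S, so that alternative was not run there. Depth limits members near 3 reads, and shared sequence limits the near-identical copies.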

Other observations

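The same symbol pattern without the biotype filter gives 55 genes. Hist2h2bb, listed as a long noncoding RNA, was uneven between libraries of a group, at 6.57 ± 8.22 CPM (SD, n = 4; 0 to 17.0 CPM) in P56 sham endothelial cells and 3.59 ± 4.66 CPM (0.112 to 9.97 CPM) in P56 sham leukocytes. In P1 sham cardiomyocytes it stood at 0.423 ± 0.296 CPM. Hist3h2bb-ps, a processed pseudogene, reached 0.568 ± 0.129 CPM (SD, n = 4) in P1 sham cardiomyocytes and was listed at 0 in all 4 P56 sham fibroblast libraries.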
